A study of Mus musculus with 22 samples.

Results

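The odorant receptor regions described here are the autosomal 50 kb windows of the mouse genome (build mm10, GRCm38) that overlap a gene whose symbol begins with Olfr in the RefSeq annotation. The rule used the annotation only and no measured value. It gave 611 of 49264 autosomal windows (1.24%), out of 54520 windows in all. They hold 1420 of 1428 annotated Olfr genes, of which 1104 are annotated as protein-coding and 315 as pseudogenes, and the other 8 Olfr genes are on X. A window held a median of 2 and at most 8 Olfr genes, and 167 windows held 1. Joined across gaps of up to 500 kb, the windows formed 68 clusters, of which 24 were a single window and 37 had at least 3. The 10 largest clusters held 377 windows (61.7%) and 980 genes. A window at the start of chromosome 17 with Olfr100 had no counts, so 610 windows and 67 clusters were measured.

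The study measured 2 histone marks by ChIP-seq in whole testes of mice that carry Robertsonian translocations, fusions that join a pair of mouse chromosomes at their centromeres. The γH2AX libraries, at 4 weeks of age, were from 3Rb carriers (F1 mice of B6.SPRET7MOLF12 crossed with RBF/Dnj), from 1Rb_M carriers (F1 mice of CBy.RBF-Rb(8.12)5Bnr/J crossed with B6.SPRET7MOLF12), from 1Rb_P carriers (F1 mice of C57BL/6J crossed with CBy.RBF-Rb(8.12)5Bnr/J), with 3 libraries each, and from 1 C57BL/6J mouse (B6), which carries no fusion. The H3.3 libraries, at 6 weeks, were from 3Rb carriers, from 1Rb carriers of the same cross as 1Rb_M, and from B6.SPRET7MOLF12 controls (Cg), with 3 libraries each. The 3 input libraries are titled 1Rb_M and B6, both at 4 weeks, and Cg, at 6 weeks. The strain entry of the input titled 1Rb_M is that of 1Rb_P, so its cross is uncertain. The strain labels of 1Rb_M, 1Rb_P and 1Rb give the fusion of chromosomes 8 and 12, while the 3Rb labels give the number of translocations and not the chromosomes. RBF/Dnj, the carrier parent of 3Rb, is known as background for fusions of 8 with 12, of 1 with 3 and of 9 with 14, which puts chromosomes 1, 3, 9 and 14 in fusions in 3Rb only. The controls differ from the carriers in strain as well as in the fusions, so the parts of strain and translocation in any difference below cannot be told apart. Whole testis mixes somatic cells and all germ cell stages of the animal's age, so a change in cell makeup and a change per cell cannot be told apart either. The labels number the replicates and do not say whether they come from different mice, so the p-values cover the spread between these libraries only. The B6 γH2AX library was made with antibody from another supplier label (the same clone), and has no replicate.

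Odorant receptors are the G protein-coupled receptors that detect smells in the nose. Each olfactory neuron transcribes a single allele of a single receptor gene, and in most other cells the receptor genes are largely silent. γH2AX is histone H2AX phosphorylated at its tail, which in male meiosis covers the X and Y chromosomes and autosomal stretches that have not paired. H3.3 is a histone H3 variant laid down outside DNA replication, mainly in transcribed genes and, in spermatocytes, on the sex chromosomes.

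Sequences of 8 receptor promoters are shown because their windows carry the differences between groups described below. They run from 250 bases before to 50 bases after the annotated start and come from RefSeq (GRCm38.p6). Capitals mark the letters of 3 motifs searched on both strands: TAATTA, the core read by homeodomain proteins such as Lhx2, TATAAA, the TATA box, and CCCNNGGG, the site of the olfactory factor Ebf. Olfr1432 (chr19:12229513-12229812, minus strand) and Olfr1431 (chr19:12209318-12209617, plus) share a window that was called in both marks, and Olfr1459 (chr19:13146608-13146907, minus) lies in the same cluster.
Olfr1432: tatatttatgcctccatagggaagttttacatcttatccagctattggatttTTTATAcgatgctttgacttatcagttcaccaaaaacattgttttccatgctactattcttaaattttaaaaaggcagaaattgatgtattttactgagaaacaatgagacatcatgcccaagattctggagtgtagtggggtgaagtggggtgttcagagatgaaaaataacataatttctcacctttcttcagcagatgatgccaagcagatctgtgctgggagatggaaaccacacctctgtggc
Olfr1431: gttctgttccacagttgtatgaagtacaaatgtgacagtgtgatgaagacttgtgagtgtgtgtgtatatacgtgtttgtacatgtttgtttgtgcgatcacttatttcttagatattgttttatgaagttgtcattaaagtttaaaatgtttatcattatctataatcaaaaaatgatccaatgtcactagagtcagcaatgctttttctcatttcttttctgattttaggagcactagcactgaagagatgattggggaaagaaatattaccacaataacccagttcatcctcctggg
Olfr1459: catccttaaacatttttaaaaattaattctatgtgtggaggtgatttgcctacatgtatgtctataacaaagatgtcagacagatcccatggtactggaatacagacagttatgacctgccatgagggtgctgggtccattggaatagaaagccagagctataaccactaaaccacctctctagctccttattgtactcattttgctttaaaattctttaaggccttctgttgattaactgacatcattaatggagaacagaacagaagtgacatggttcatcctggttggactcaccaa
Olfr720 (chr14:14176031-14176330, minus) and Olfr71 (chr4:43706517-43706816, minus) are in windows that differed in γH2AX. Olfr136 (chr17:38334909-38335208, plus), Olfr952 (chr9:39427099-39427398, minus) and Olfr1037 (chr2:86085805-86086104, minus) are in windows that were lower in 3Rb in both marks.
Olfr720: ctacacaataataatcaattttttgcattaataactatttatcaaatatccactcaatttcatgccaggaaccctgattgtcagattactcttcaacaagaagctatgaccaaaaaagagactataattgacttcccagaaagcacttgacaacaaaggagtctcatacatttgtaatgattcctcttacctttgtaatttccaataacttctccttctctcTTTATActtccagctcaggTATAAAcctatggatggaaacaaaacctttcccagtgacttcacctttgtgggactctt
Olfr71: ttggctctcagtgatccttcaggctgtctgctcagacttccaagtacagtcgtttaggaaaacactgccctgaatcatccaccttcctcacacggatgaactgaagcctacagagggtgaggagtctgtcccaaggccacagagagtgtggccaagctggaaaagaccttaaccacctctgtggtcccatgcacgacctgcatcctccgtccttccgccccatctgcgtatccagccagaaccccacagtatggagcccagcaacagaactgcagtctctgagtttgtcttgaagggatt
Olfr136: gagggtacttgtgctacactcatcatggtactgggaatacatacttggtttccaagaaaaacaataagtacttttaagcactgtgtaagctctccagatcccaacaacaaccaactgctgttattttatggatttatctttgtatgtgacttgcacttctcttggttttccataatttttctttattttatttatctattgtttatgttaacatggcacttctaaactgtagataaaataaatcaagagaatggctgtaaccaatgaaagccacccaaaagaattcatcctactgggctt
Olfr952: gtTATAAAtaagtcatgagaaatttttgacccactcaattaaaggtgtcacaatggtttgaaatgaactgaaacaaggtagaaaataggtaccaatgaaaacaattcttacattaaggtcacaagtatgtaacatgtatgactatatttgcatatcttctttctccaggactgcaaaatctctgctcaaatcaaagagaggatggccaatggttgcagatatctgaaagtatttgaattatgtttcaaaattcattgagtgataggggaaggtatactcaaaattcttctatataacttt
Olfr1037: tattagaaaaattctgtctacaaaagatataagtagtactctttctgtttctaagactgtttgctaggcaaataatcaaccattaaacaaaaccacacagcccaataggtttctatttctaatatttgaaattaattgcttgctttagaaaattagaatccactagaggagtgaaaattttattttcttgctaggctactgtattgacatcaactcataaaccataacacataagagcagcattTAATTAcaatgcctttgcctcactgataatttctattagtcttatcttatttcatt
TAATTA was found in 1 of the 8 (Olfr1037), TATAAA in 3 (Olfr1432, Olfr720 and Olfr952) and CCCNNGGG in 0. In 6 of the 8, all but Olfr952 and Olfr1037, the annotated start is an ATG, as where only a coding sequence was annotated, so that the bases before it need not be the promoter. The same held for 72.4% of 948 promoters of 944 Olfr symbols in the table, against 5.83% of all 32851 promoters of 27025 symbols. TAATTA stood in 18.6% of Olfr promoters and in 5.29% of all promoters, TATAAA in 41.0% and 13.6%, and CCCNNGGG in 3.06% and 13.7%. In 80 Olfr promoters both TAATTA and TATAAA were found. Olfr promoters were AT-rich, with a mean GC content of 36.1% against 53.8% and 1.29 CpG against 12.4 in 300 bases. Of the 948, 128 (13.5%) shared a run of 50 bases with another, so their windows hold sequence on which short reads cannot always be placed.

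The 3Rb, 1Rb_M and 1Rb_P γH2AX libraries held between 45527545 and 56385465 counts, the B6 γH2AX library 21535147, the H3.3 libraries between 41278440 and 128348440, and the inputs between 11876426 and 51651953. An Olfr window had a median of 551 to 720 counts in the carriers' γH2AX, 252 in the B6 library, 489 to 1475 in H3.3 and 182 to 852 in the inputs, so that counting error alone was 2.60% to 7.41% at the median window. Windows with Olfr genes took 0.706% to 0.873% of the γH2AX counts, 0.767% to 0.821% of the H3.3 counts and 0.956% to 1.02% of the input counts. The first and second 1Rb_M γH2AX libraries stand apart: X took 12.3% of their counts, against 17.7% to 18.9% in the other carriers and 20.6% in B6. The main γH2AX counts that rest on 1Rb_M are therefore also given with the third 1Rb_M library standing for the group, which is then assumed to vary like the other groups. Replicates differed by more than counting error, with a chi-square per degree of freedom of 1.09 to 3.95 over 18 pairs of libraries of the same group.

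H3.3 was low on the receptor windows in every group. The level used here is the log2 ratio of a window's counts to the 3 inputs pooled, set so that the median window of the autosomes in no fusion is 0. The median Olfr window was at -0.25, -0.21 and -0.22 in the 3Rb libraries, at -0.21, -0.30 and -0.31 in the 1Rb libraries, and at -0.32, -0.25 and -0.27 in the Cg libraries. The 3 groups overlapped, and all 9 libraries were below 0. In 87.0% of Olfr windows the mean level was below 0 in 3Rb, in 86.9% in 1Rb and in 86.6% in Cg. Against the median of the other autosomal windows, Olfr windows were at -0.20 ± 0.02 in 3Rb, -0.25 ± 0.05 in 1Rb and -0.25 ± 0.04 in Cg (log2, mean ± SD of 3 libraries), which is 0.868, 0.842 and 0.838 times the level of the others. Against their own flanks, the windows within 500 kb that hold no Olfr gene, the difference was -0.39 ± 0.04 in 3Rb, -0.47 ± 0.09 in 1Rb and -0.46 ± 0.06 in Cg. It was present on both kinds of chromosome: -0.25, -0.26 and -0.28 in 3Rb, 1Rb and Cg on 1, 3, 9 and 14, and -0.44, -0.52 and -0.52 on the chromosomes in no fusion.

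γH2AX on the receptor windows was near the autosomal level. The median Olfr window was at 0.01, -0.04 and 0.00 in the 3Rb libraries, at -0.06, -0.00 and -0.14 in 1Rb_M, at -0.08, -0.11 and -0.07 in 1Rb_P and at -0.07 in B6. The 3Rb libraries were all above the 1Rb_P libraries, and the 1Rb_M libraries overlapped both. The share of Olfr windows below 0 was 51.3% in 3Rb, 68.4% in 1Rb_M, 72.5% in 1Rb_P and 65.4% in B6. Against the other autosomal windows they were at -0.03 ± 0.03 in 3Rb, -0.07 ± 0.07 in 1Rb_M, -0.09 ± 0.02 in 1Rb_P and -0.07 in B6, and over the 9 carrier libraries at -0.06 ± 0.05. The flanks gave 0.04 ± 0.03 in 3Rb, -0.05 ± 0.09 in 1Rb_M, -0.04 ± 0.03 in 1Rb_P and -0.02 in B6. These γH2AX differences depended on the input: with the B6 input alone, the difference from the other autosomal windows was 0.01 over the 9 carrier libraries, and that of H3.3 was -0.15. The inputs themselves differed at Olfr windows, by 0.11 for Cg over B6 and by 0.07 for 1Rb_M over B6 on the same scale, relative to other autosomal windows.

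**Figure D1:**
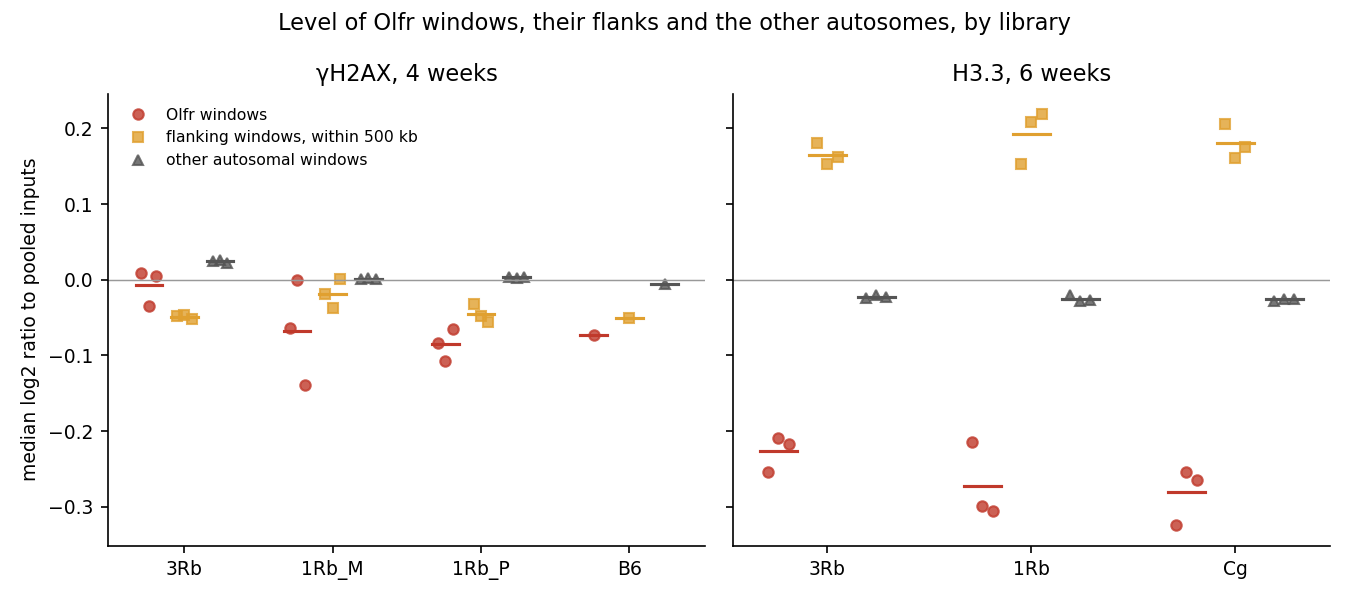
Median log2 ratio to the pooled inputs (vertical axis) of Olfr windows, of windows within 500 kb of them and of the other autosomal windows, with 1 point per library and a line at the group mean, for γH2AX (left, 4 weeks) and H3.3 (right, 6 weeks). H3.3 on Olfr windows lies between -0.32 and -0.21 in all 9 libraries, below both other sets, while the 3Rb γH2AX medians lie at -0.04 to 0.01.

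The H3.3 level of a receptor window was higher the more other genes it held. In 514 Olfr windows with no other coding gene the median H3.3 level over the 9 libraries was -0.29, in 73 windows with 1 other coding gene it was -0.02, and in 23 windows with at least 2 it was 0.37. γH2AX differed by group: it was 0.01 in the 514 windows and -0.23 in the 23 in 3Rb, -0.07 and -0.04 in 1Rb_M, -0.09 and -0.12 in 1Rb_P, and -0.07 and -0.09 in B6. The Spearman correlation of γH2AX with the number of other coding genes was -0.25 in 3Rb, 0.07 in 1Rb_M, -0.04 in 1Rb_P and -0.08 in B6. For H3.3 over 610 windows that correlation was 0.43 in 3Rb, 0.44 in 1Rb and 0.45 in Cg, and with the number of Olfr genes it was -0.29, -0.28 and -0.27. These windows share their libraries and inputs, and the H3.3 level also went with the input count itself (Spearman correlation 0.37, 0.42 and 0.36). Set against 20026 autosomal windows without any coding gene, the 514 windows with Olfr genes only were lower in H3.3 by much less than above: the difference was -0.06 ± 0.01 in 3Rb, -0.07 ± 0.01 in 1Rb and -0.06 ± 0.003 in Cg. In γH2AX the same comparison gave -0.05 ± 0.02 in 3Rb, -0.06 ± 0.04 in 1Rb_M, -0.09 ± 0.01 in 1Rb_P and -0.07 in B6.

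In H3.3, single windows at the ends of the range show the same split. The highest H3.3 level was in the Olfr70 window at chr4:43650001-43700000, with 0.84 in 3Rb, 0.97 in 1Rb and 0.95 in Cg, and it holds 5 other coding genes. The lowest level averaged over the groups was that of Olfr849 and Olfr848-ps1 on chromosome 9, at -0.42 in 3Rb, -0.62 in 1Rb and -0.71 in Cg. In 3Rb alone the lowest was the window of Olfr762-ps1, Olfr137 and Olfr136 on chromosome 17, at -0.93. It holds no other coding gene and was also the lowest in 3Rb γH2AX, at -0.89. Low γH2AX was thus not limited to windows with other coding genes. The Olfr1359 window on chromosome 13, with 5 other coding genes, was low in γH2AX in every group, at -0.57 in 3Rb, -0.44 in 1Rb_M, -0.57 in 1Rb_P and -0.87 in B6.

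The clusters kept their H3.3 order between groups and differed more in γH2AX. Of 37 clusters with at least 3 windows, the H3.3 level was below 0 in 31 in 3Rb, 30 in 1Rb and 31 in Cg, and below that of their own flanks in 34, 33 and 33. The γH2AX level was below 0 in 24 of 37 in 3Rb, 28 in 1Rb_M, 31 in 1Rb_P and 30 in B6. As a description over these 37 clusters, which share the pooled inputs, the Spearman correlation between groups was 0.908 for H3.3 in 3Rb and Cg, 0.918 for 1Rb and Cg, and for γH2AX 0.679 for 3Rb and 1Rb_P and 0.749 for 1Rb_M and 1Rb_P. The largest cluster, with 100 windows and 293 genes from Olfr987 to Olfr1274 at 85.3 to 90.4 Mb of chromosome 2, had γH2AX levels of 0.03 in 3Rb, -0.11 in 1Rb_M, 0.00 in 1Rb_P and 0.12 in B6, and H3.3 levels of -0.28, -0.34 and -0.34 in 3Rb, 1Rb and Cg. The cluster at 102.5 to 105.4 Mb of chromosome 7 (49 windows, 158 genes from Olfr543 to Olfr692), which holds the class I or fish-like receptors, was lower in γH2AX: -0.15 in 3Rb, -0.15 in 1Rb_M, -0.24 in 1Rb_P and -0.24 in B6. The receptors next to the major histocompatibility complex on chromosome 17 (25 windows, Olfr90 to Olfr136) had the lowest γH2AX level of the 37 in 1Rb_M and 1Rb_P, at -0.19 and -0.33, and were at -0.27 in 3Rb and -0.28 in B6. In 3Rb the lowest was the cluster from Olfr1416 to Olfr12 on chromosome 1, at -0.32, with 1Rb_M at -0.11, 1Rb_P at -0.23 and B6 at -0.09, and its H3.3 level was above 0 in all groups (0.13 in 3Rb, 0.19 in 1Rb and 0.16 in Cg).

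**Figure D2:**
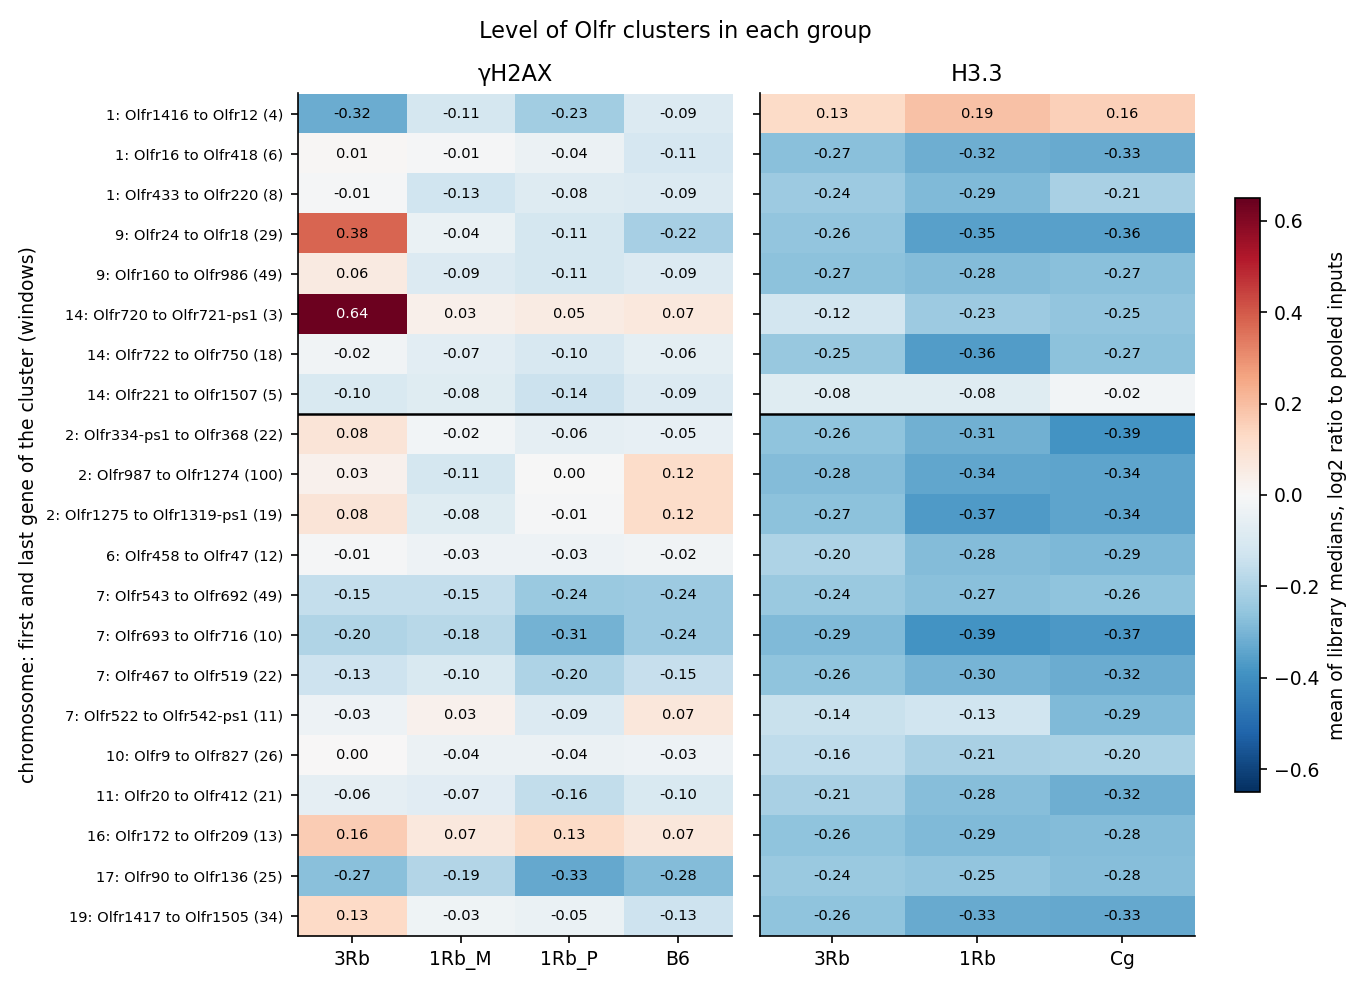
Level of each Olfr cluster of at least 10 windows, or of at least 3 on 1, 9 and 14 (lines of the map, by chromosome with first and last gene) in each group (columns), as the mean over libraries of the median log2 ratio to the pooled inputs; clusters on 1, 9 and 14 are above the black line. Among those above the line, the clusters at Olfr24 to Olfr18 and Olfr720 to Olfr721-ps1 are high in 3Rb γH2AX (0.38 and 0.64), and most clusters are below 0 in H3.3.

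γH2AX differed between 3Rb and each 1Rb group at some receptor windows, and most of those on chromosomes 1, 3, 9 and 14 were higher in 3Rb. With all libraries and both directions together, receptor windows were called less often than all windows. Only in the higher direction against 1Rb_P were they called more often. A window was called where edgeR's quasi-likelihood test gave a Benjamini-Hochberg adjusted p below 0.05 over all windows. Against 1Rb_M, 91 of 610 Olfr windows were called higher and 50 lower in 3Rb (14.9% and 8.20%), where 17.9% of all windows were called higher and 20.2% lower. Against 1Rb_P, 78 were called higher and 16 lower (12.8% and 2.62%), where 10.1% and 12.8% of all windows were. The median log2 difference of Olfr windows was 0.04 against 1Rb_M and 0.07 against 1Rb_P, and that of all windows was 0.01 and 0.00. These counts turned on scaling, on the tool and on single 1Rb libraries. Scaled by library totals, the median of all windows against 1Rb_M moved to -0.09, that of Olfr windows to -0.06, and the Olfr calls became 35 higher and 84 lower (8.46% and 30.5% of all windows). Against 1Rb_P they became 53 and 13 (7.03% and 11.7%). With the third 1Rb_M library alone, 304 Olfr windows were higher and 39 lower than in 1Rb_M (27.4% and 24.0% of all windows), and 159 higher and 33 lower than in 1Rb_P (17.0% and 20.2%), where the fit shares its spread with the other groups. Leaving out 1Rb_M library 2 gave 188 higher and leaving out library 3 gave 94 lower against 1Rb_M. Against 1Rb_P, leaving out 1Rb_M library 3 gave 142 higher and 29 lower, and leaving out 1Rb_P library 2 gave 51 higher.

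On chromosomes 1, 3, 9 and 14, 49 of 130 Olfr windows were higher and 5 lower in 3Rb than in 1Rb_M, and 52 were higher and 1 lower than in 1Rb_P. Of all windows on these chromosomes, 32.3% were higher and 13.2% lower than in 1Rb_M, and 26.5% and 6.61% than in 1Rb_P. The median difference of the Olfr windows was 0.13 and 0.16, and that of all windows there 0.06 and 0.05. Most of the Olfr calls were on chromosome 9, with 79 of the 130 windows, where 43 and 45 were higher and 1 and 1 lower. Chromosome 14 gave 4 higher and 1 lower of 28 against 1Rb_M, and 5 and 0 against 1Rb_P. Chromosome 1 gave 1 and 3 of 18, and 1 and 0, and chromosome 3 gave 1 and 0 of 5 against both. The medians were 0.19 and 0.25 on 9, 0.03 and 0.09 on 14, 0.01 and 0.02 on 1, and 0.00 and -0.04 on 3. Shares of all windows on each single chromosome are not given here, so these counts do not set receptor windows apart from their chromosome. On the chromosomes in no fusion, 41 of 474 Olfr windows were higher and 44 lower than in 1Rb_M, and 26 higher and 15 lower than in 1Rb_P, where 12.3% and 24.0%, and 5.54% and 14%, of all windows were. DESeq2 called fewer: the 474 windows gave 11 higher and 31 lower against 1Rb_M and 7 and 9 against 1Rb_P, the 130 windows gave 39 and 4, and 42 and 1, and of all windows 13.6% and 14.6% were called against 1Rb_M and 5.96% and 7.29% against 1Rb_P. With library totals the 130 windows gave 31 higher and 9 lower against 1Rb_M and 43 and 1 against 1Rb_P. The 474 windows gave 4 and 73, and 10 and 12. Of all windows of the genome, that scaling called 8.46% and 30.5%, and 7.03% and 11.7%. With the third 1Rb_M library alone, the median difference of the 130 windows was 0.27 against 1Rb_M and 0.16 against 1Rb_P. That of all windows on 1, 3, 9 and 14 was 0.12 and 0.05. For the 474 windows it was 0.16 and 0.06, and for all windows on chromosomes in no fusion 0.02 and -0.01. Within each library, the median Olfr window on 1, 3, 9 and 14 minus that on the chromosomes in no fusion was 0.08, 0.10 and 0.11 in 3Rb, a mean of 0.10 ± 0.01, while 1Rb_M was at -0.00 ± 0.01, 1Rb_P at -0.02 ± 0.02 (SD, n = 3 each) and B6 at -0.05. The 3Rb libraries did not overlap the other groups in this measure. In H3.3 it was -0.02 ± 0.02 in 3Rb, -0.03 ± 0.02 in 1Rb and 0.00 ± 0.02 in Cg.

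The difference on the joined chromosomes went with distance from the centromere, which in the mouse lies at the start of each chromosome. In the stretch from 3 to 23 Mb, 34 of 34 Olfr windows were called higher in 3Rb against both 1Rb groups, with medians of 0.41 against 1Rb_M and 0.51 against 1Rb_P. The 1563 other windows there had medians of 0.48 and 0.54, and 91.6% and 93.7% of them were called higher. From 23 to 43 Mb, 13 and 15 of 49 Olfr windows were higher, with medians of 0.14 and 0.16, and 40.7% and 48.5% of 1548 other windows, whose medians were 0.11 and 0.17. All 49 Olfr windows of this band are 1 cluster on chromosome 9, and 29 of the 34 nearer ones are another cluster there. Up to 43 Mb the Olfr windows thus come mostly from chromosome 9, and neighbouring windows of a cluster are not independent. From 43 to 63 Mb, 1 and 2 of 25 Olfr windows were higher, and 26.9% and 21.2% of 1575 other windows. Beyond 63 Mb it was 1 and 1 of 22 Olfr windows, and 18.4% and 7.70% of 7027 others. Beyond 23 Mb the share called was thus lower among Olfr windows than among the others in each band, and the difference between the sets was not tested. From the third 1Rb_M library alone this order of the shares did not hold throughout. All 34 Olfr windows from 3 to 23 Mb were still higher than in 1Rb_M, but so were 39 of 49, 7 of 25 and 8 of 22 in the bands farther out, where 49.2%, 34.0% and 32.97% of the others were. Against 1Rb_P that fit gave 34 of 34, 33 of 49, 7 of 25 and 1 of 22, where 96.2%, 61.2%, 31.6% and 14.4% of the others were.

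The 29 windows of the cluster at 18.8 to 20.3 Mb of chromosome 9 (51 genes from Olfr24 to Olfr18) were all called higher in 3Rb against both 1Rb groups. Its mean level per window was 16.6, 16.3 and 16.6 CPM (counts scaled to a common library size by TMM) in 3Rb, against 12.8, 13.4 and 11.5 in 1Rb_M and 11.7, 11.6 and 12.2 in 1Rb_P. The 3Rb libraries were above all 6 others. The log2 difference of the summed cluster was 0.39 ± 0.05 against 1Rb_M (± standard error; adjusted p = 0.000145) and 0.48 ± 0.05 against 1Rb_P (adjusted p = 7.5e-05). Its H3.3 level was 11.7, 12.2 and 12.3 CPM in 3Rb, against 10.8, 11.5 and 11.5 in Cg, and that difference missed the threshold (0.10 ± 0.04, adjusted p = 0.0963).

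Nearer the centromeres the differences were larger. The 3 windows from Olfr720 to Olfr721-ps1 at 14.2 to 14.4 Mb of chromosome 14 had 21.1, 20.8 and 21.1 CPM per window in 3Rb, against 14.6, 13.6 and 13.4 in 1Rb_M and 13.4, 13.2 and 13.9 in 1Rb_P (0.60 ± 0.04, adjusted p = 1.7e-06; 0.64 ± 0.04, adjusted p = 1.28e-06). The pseudogene Olfr369-ps1, at 3.2 Mb of chromosome 9, lay in a window with 19.98, 20.1 and 19.6 CPM in 3Rb, against 13.2, 13.8 and 11.1 in 1Rb_M and 12.5, 10.5 and 10.9 in 1Rb_P (0.65 ± 0.08, adjusted p = 0.000107; 0.82 ± 0.08, adjusted p = 4.59e-05). In all of these the groups did not overlap. The window of the pseudogene Olfr289-ps1, at 6.8 Mb of chromosome 3, had the largest difference of the 67 clusters, with 18.6, 19.03 and 19.2 CPM in 3Rb, against 10.9, 11.9 and 9.14 in 1Rb_M and 10.8, 9.44 and 9.87 in 1Rb_P (0.83 ± 0.08, adjusted p = 3.02e-05; 0.92 ± 0.08, adjusted p = 2.04e-05). It was also the only cluster called in H3.3 between 3Rb and 1Rb, at 12.4, 12.7 and 12.4 CPM in 3Rb, against 10.7, 11.4 and 10.3 in 1Rb (0.21 ± 0.05, adjusted p = 0.0228). That count of 1 higher (2.56% of clusters and bins were higher and 3.62% lower) became 11 without 1Rb library 1, and the call was lost without 1Rb library 3, 3Rb library 2 or 3Rb library 3.

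Farther out the clusters on these chromosomes did not pass the test in the higher direction. The 49-window cluster at 37.7 to 40.2 Mb of chromosome 9 (127 genes from Olfr160 to Olfr986) had 13.6, 13.1 and 13.5 CPM per window in 3Rb, against 12.5, 13.2 and 11.2 in 1Rb_M and 11.8, 11.8 and 12.4 in 1Rb_P. Here 3Rb overlapped 1Rb_M, and the differences were 0.13 ± 0.11 (adjusted p = 0.333) and 0.16 ± 0.11 (adjusted p = 0.275), although 13 of its windows were higher and 1 lower than in 1Rb_M, and 15 higher and 1 lower than in 1Rb_P. When only the third 1Rb_M library was used, the cluster was called against both, at 0.26 (adjusted p = 0.000249) and 0.16 (adjusted p = 0.00134), with 39 and 33 of its windows higher. That fit also called the clusters from Olfr722 to Olfr750 (0.14 and 0.10) and, against 1Rb_M only, Olfr16 to Olfr418 (0.10) and Olfr433 to Olfr220 (0.20), which the fit with all libraries did not. With all libraries the cluster from Olfr722 to Olfr750 at 49.9 to 51.1 Mb of chromosome 14 gave 0.05 and 0.10 against 1Rb_M and 1Rb_P (adjusted p = 0.0891 for 1Rb_P), and that from Olfr221 to Olfr1507 at 52.0 Mb gave -0.04 and 0.02. On chromosome 1, Olfr16 to Olfr418 gave 0.00 and 0.03 and Olfr433 to Olfr220, at 174.0 Mb, gave 0.08 and 0.03. The cluster from Olfr1416 to Olfr12, at 92.5 Mb of chromosome 1, was lower in 3Rb than in 1Rb_M (-0.19 ± 0.03, adjusted p = 0.000841) and uncalled against 1Rb_P (-0.06, adjusted p = 0.211).

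**Figure D3:**
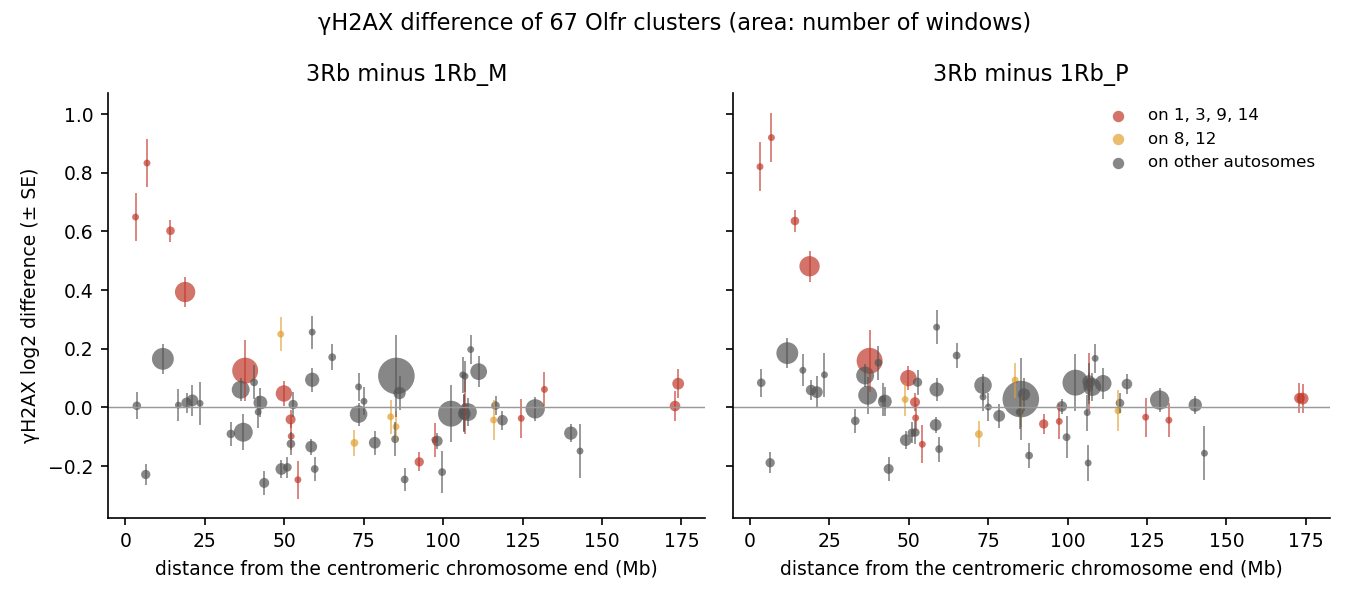
γH2AX log2 difference of 67 Olfr clusters with its standard error (vertical axis), 3Rb minus 1Rb_M on the left and 3Rb minus 1Rb_P on the right, against the distance of the cluster from the centromeric end in Mb; the area of a point gives its number of windows. The 4 clusters on 1, 3, 9 and 14 within 23 Mb of that end lie between 0.39 and 0.92, and the 12 farther out lie between -0.25 and 0.16.

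Chromosomes 8 and 12, whose fusion the 1Rb labels name and RBF/Dnj is known to carry too, hold 6 Olfr windows. Their median γH2AX level minus that of the Olfr windows on chromosomes in no fusion was -0.11 ± 0.07 in 3Rb, -0.00 ± 0.11 in 1Rb_M, -0.00 ± 0.08 in 1Rb_P and -0.02 in B6, and the groups overlapped. Against 1Rb_M, 1 was higher and 1 lower in 3Rb, where 17.6% and 21.4% of all windows on 8 and 12 were. The third 1Rb_M library alone gave 1 higher and 2 lower (24.1% and 32.3% of all windows there).

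Among clusters on chromosomes in no fusion, the one on chromosome 19 was called higher in 3Rb with all libraries, and some small ones were called lower. In all, 9 of 67 clusters were higher and 15 lower in 3Rb than in 1Rb_M, where 23% and 27.1% of 2734 clusters and 1 Mb bins were called, and 9 were higher and 6 lower than in 1Rb_P (15.9% and 21.5%). With library totals these became 4 and 21, and 5 and 3, where 236 and 1092, and 212 and 426, of the 2734 clusters and bins were called. With the third 1Rb_M library alone, calls in the higher direction rose among Olfr clusters and also among all clusters and bins. Without 1Rb_M library 2, 14 were higher against 1Rb_M. Against 1Rb_P, 19 were higher without 1Rb_M library 3, 5 without 1Rb_P library 2, and 3 were lower without 3Rb library 2. The 34-window cluster at 11.8 to 13.9 Mb of chromosome 19 (91 genes from Olfr1417 to Olfr1505) had 14.5, 14.2 and 14.5 CPM per window in 3Rb, against 13.1, 13.5 and 11.9 in 1Rb_M and 12.6, 12.6 and 12.7 in 1Rb_P. All 3Rb libraries were above the others (0.17 ± 0.05, adjusted p = 0.0205; 0.19 ± 0.05, adjusted p = 0.0162), and 11 and 12 of its windows were called higher, or 24 and 20 with the third 1Rb_M library alone. Both cluster calls were lost with library totals (0.06 and 0.17), and without any 1 library of 1Rb_P, 3Rb library 1 or 3Rb library 3. Chromosome 19 windows without Olfr genes had medians of -0.09 and -0.11 between 3 and 8 Mb, and of -0.07 and -0.09 between 8 and 11 Mb. Between 11 and 15 Mb, around the cluster, they had 0.07 and 0.08, with 7 and 4 of 46 higher and 1 and 1 lower. Between 15 and 20 Mb they had 0.11 and 0.09, with 31 and 10 of 100 higher. Without chromosome 19, 30 of 440 Olfr windows were higher and 44 lower than in 1Rb_M, and 14 and 15 than in 1Rb_P, and with the third 1Rb_M library alone these were 191 and 32, and 64 and 30.

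The lower clusters were small. On chromosome 4 the 5 windows from Olfr70 to Olfr155 gave -0.26 ± 0.04 (adjusted p = 0.000446) against 1Rb_M and -0.21 ± 0.04 (adjusted p = 0.00306) against 1Rb_P. Olfr1344 to Olfr1350 on chromosome 7 gave -0.23 ± 0.04 (adjusted p = 0.000401) and -0.19 ± 0.04 (adjusted p = 0.0026), and Olfr1396 to Olfr1380 on chromosome 11 gave -0.21 ± 0.03 (adjusted p = 0.000245) and -0.11 ± 0.03 (adjusted p = 0.0151). The Olfr71 and Olfr70 window at chr4:43700001-43750000 had 13.0, 12.5 and 12.1 CPM in 3Rb, against 16.4, 14.9 and 16.1 in 1Rb_M and 15.7, 14.2 and 15.2 in 1Rb_P, with no overlap. The largest clusters on chromosomes in no fusion were not called with all libraries, and their values turned on the 1Rb_M libraries. The 100-window cluster on chromosome 2 gave 0.11 ± 0.14 (adjusted p = 0.533) against 1Rb_M and 0.03 ± 0.14 (adjusted p = 0.917) against 1Rb_P, and 16 of its windows were higher and 2 lower than in 1Rb_M. It was called against 1Rb_M with the third 1Rb_M library alone (0.29, adjusted p = 0.000869), with 88 windows higher and 0 lower by edgeR. The class I cluster on chromosome 7 gave -0.02 and 0.08, and the cluster next to the major histocompatibility complex -0.08 and 0.04, neither of them called. Both turned direction against 1Rb_M and were called with the third 1Rb_M library alone, at 0.14 (adjusted p = 0.0163) and 0.10 (adjusted p = 0.0109).

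Between the 1Rb groups, which differ in the order of the parents in the cross and in the strain of the parent without the fusion, few receptor windows were called. In edgeR 1 of 610 was higher and 2 were lower in 1Rb_M than in 1Rb_P, where 0.299% and 1.06% of all windows were, with 87 at an unadjusted p under 0.05, and DESeq2 called 0 in either direction. Named, these were Olfr532 with Olfr531 on chromosome 7 (0.26 ± 0.07, adjusted p = 0.0388), Olfr1168 with its neighbours on chromosome 2 (-0.22 ± 0.06, adjusted p = 0.0453) and the pseudogenes Olfr1400-ps1 and Olfr1399-ps1 on chromosome 12 (-0.22 ± 0.06, adjusted p = 0.0477). The count rested on the 1Rb_M libraries: without library 3 it was 137 higher and 5 lower, without library 2 it was 5 and 29, and with library 3 alone 8 and 101 (4.71% and 11.4% of all windows). Without library 1 of 1Rb_M, or without any 1 library of 1Rb_P, it was 0 in both directions, and without any 1 library of 3Rb it was 0 lower. Among clusters, 3 were higher and 1 lower (3.77% and 3.73% of clusters and bins), and without 1Rb_M library 3 the first count was 24. The highest of the 3 was the cluster from Olfr1416 to Olfr12 on chromosome 1 (0.13 ± 0.03, adjusted p = 0.0424). Leaving out 1Rb_M library 2 gave 2 lower, and leaving out 1Rb_M library 1 or any 1 library of 1Rb_P or 3Rb gave at most 1 higher and 0 lower.

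In each H3.3 comparison fewer receptor windows were called than in either γH2AX comparison of 3Rb. More were called than between the 1Rb groups in γH2AX. Over all windows the order of the comparisons was the same, so it is not particular to receptor windows. In 3Rb 32 of 610 windows were higher and 11 lower than in Cg, where 3.34% and 6.16% of all windows were, with a median difference of 0.07. In 1Rb 4 were higher and 8 lower than in Cg (1.08% and 2.62% of all windows; median 0.01), and 17 were higher and 7 lower in 3Rb than in 1Rb (2.08% and 4.02%; median 0.05). Scaled on autosomes alone the counts for 3Rb against Cg were 27 and 15 (2.74% and 7.38% of all windows). They also moved with single libraries. Against Cg, the 3Rb counts were 19 and 17 without Cg library 1, 12 and 6 without 3Rb library 2, 14 and 7 without 3Rb library 3, and 7 lower without Cg library 2 or 3. The 1Rb counts against Cg were 8 and 15 without Cg library 1, 2 higher without 1Rb library 2 or 3, and 5 lower without 1Rb library 3. Between 3Rb and 1Rb, 51 were higher without 1Rb library 1, 9 without 1Rb library 2, 11 without 1Rb library 3 and 8 without 3Rb library 2. Near the fused centromeres, 7 of 34 Olfr windows between 3 and 23 Mb on 1, 3, 9 and 14 were higher in 3Rb than in Cg, with a median of 0.11, and the other windows there had a median of 0.08 with 15.3% higher.

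The H3.3 cluster with the clearest difference was at 140.2 to 140.7 Mb of chromosome 7 (11 windows, 25 genes from Olfr522 to Olfr542-ps1). It had 12.9, 13.1 and 13.2 CPM per window in 3Rb and 12.9, 13.3 and 12.9 in 1Rb, against 11.7, 11.6 and 11.5 in Cg. Both carrier groups lay above Cg (0.17 ± 0.03, adjusted p = 0.00106, and 0.16 ± 0.03, adjusted p = 0.00385). The inputs moved the same way at this cluster: its share in the 1Rb_M input was 1.11 times that in the Cg input (95% interval 1.08 to 1.15, counting error only), the highest of the 37 clusters, and its share in the Cg input was 0.825 times that in the B6 input, the lowest of the 37. The part of the input in the H3.3 difference was not tested. The cluster from Olfr20 to Olfr412 on chromosome 11 had 12.7, 13.1 and 13.3 CPM in 3Rb, against 11.9 to 12.1 in the 3 Cg libraries (0.12 ± 0.02, adjusted p = 0.00617), with an input ratio of 1.02. Also higher in 3Rb than in Cg were Olfr211 to Olfr215 on chromosome 6 (0.14 ± 0.03, adjusted p = 0.0219) and Olfr334-ps1 to Olfr368 on chromosome 2 (0.11 ± 0.03, adjusted p = 0.0435, a call lost in 7 of 9 fits without 1 library). Lower were the pseudogene Olfr241-ps1 on chromosome 12 (-0.21 ± 0.05, adjusted p = 0.0147; -0.25 ± 0.05 in 1Rb, adjusted p = 0.0134, lost without 1Rb library 2 or 3 or Cg library 3, beside 1.46% and 2.38% of clusters and bins called higher and lower in 1Rb), at an input ratio of 0.853, and Olfr49 on chromosome 14 (-0.20 ± 0.05, adjusted p = 0.0262). These 4 higher and 2 lower clusters stand beside 4.35% and 8.52% of clusters and bins; the higher count was 8 without 1Rb library 1 and 2 without Cg library 2, 3Rb library 2 or 3Rb library 3, and the lower count was 1 without Cg library 1 and 0 without Cg library 3, 3Rb library 2 or 3Rb library 3.

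Single H3.3 windows differed more than any cluster. Olfr530 with Olfr529-ps1 at chr7:140350001-140400000 had 11.9, 12.2 and 11.3 CPM in 3Rb, against 8.80, 9.52 and 8.91 in Cg (0.38 ± 0.06), and 1Rb was higher than Cg by 0.40 ± 0.07. Olfr538, in the same cluster, was also 0.38 ± 0.07 higher in 3Rb, where the Cg input was at 0.580 times the B6 input (95% interval 0.487 to 0.694). Lower than in Cg was the window of Olfr1228 and Olfr1227-ps1 on chromosome 2, at -0.41 in 3Rb and -0.39 in 1Rb. Of 12 windows called between 1Rb and Cg, 11 had an input ratio of 1Rb_M to Cg of the same sign, and over all 610 windows the Spearman correlation between that ratio and the H3.3 difference was 0.214.

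At 16 receptor windows both marks were called between 3Rb and the 1Rb_M cross, γH2AX at 4 weeks and H3.3 at 6 weeks, and all 16 moved the same way in both. They are 66.7% of the 24 windows called in H3.3 and 11.3% of the 141 called in γH2AX. Over all autosomal windows 846 were called in both, 67.6% of 1252 in H3.3 and 4.53% of 18655 in γH2AX, and 827 of them moved the same way. Using the third 1Rb_M library alone, 19 Olfr windows were called in both, all 19 the same way, of 343 called in γH2AX.

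The largest shared differences were in windows of the chromosome 19 cluster and of the cluster next to the major histocompatibility complex. At chr19:12200001-12250000, the window of Olfr1432, Olfr1431 and Olfr262, γH2AX was 15.9, 15.7 and 15.6 CPM in 3Rb, against 9.34, 10.03 and 9.41 in 1Rb_M and 8.82, 10.2 and 9.28 in 1Rb_P (0.71 ± 0.07, adjusted p = 2.6e-09; 0.74 ± 0.07, adjusted p = 1.32e-09). H3.3 there was 15.7, 15.3 and 15.5 in 3Rb and 10.04, 8.69 and 9.66 in 1Rb, against 14.1, 16.9 and 16.9 in Cg. In H3.3, then, 1Rb was the group that stood apart: it was lower than Cg (-0.72 ± 0.06, adjusted p = 1.14e-10), 3Rb was higher than 1Rb (0.71 ± 0.06, adjusted p = 1.2e-11), and 3Rb and Cg differed by -0.01 ± 0.06 (adjusted p = 0.942). The input moved too, with a 1Rb_M to Cg ratio of 0.618 (95% interval 0.554 to 0.688), and its part was not tested. At chr19:13100001-13150000, the window of Olfr1458 and Olfr1459, the input ratio was 1.01. γH2AX was 21.2, 21.6 and 22.4 CPM in 3Rb, against 14.5, 14.4 and 12.6 in 1Rb_M and 13.98, 13.3 and 13.3 in 1Rb_P (0.65 ± 0.06, adjusted p = 5.65e-10; 0.68 ± 0.06, adjusted p = 2.43e-10). H3.3 was 13.5, 15.1 and 14.8 in 3Rb and 12.4, 11.8 and 11.3 in 1Rb, against 10.9, 11.3 and 11.4 in Cg (0.30 ± 0.06 for 3Rb over 1Rb, adjusted p = 0.000253; 0.38 ± 0.06 over Cg, adjusted p = 2.21e-06). Here 3Rb lay above both other groups in both marks.

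Lower in 3Rb in both marks was the window of Olfr762-ps1, Olfr137 and Olfr136 at chr17:38300001-38350000. Its γH2AX was 6.86, 6.55 and 6.85 CPM in 3Rb, against 12.8, 12.2 and 9.18 in 1Rb_M and 9.49, 9.38 and 9.57 in 1Rb_P (-0.75 ± 0.09, adjusted p = 2.56e-07; -0.49 ± 0.10, adjusted p = 0.000289). Its H3.3 was 7.67, 7.45 and 7.10 in 3Rb and 13.8, 12.01 and 13.2 in 1Rb, against 11.4, 11.7 and 11.5 in Cg (-0.82 ± 0.07 for 3Rb over 1Rb, adjusted p = 1.7e-12; -0.64 ± 0.07 over Cg, adjusted p = 9.86e-10). The 3Rb libraries were below all others in both marks, and no 3Rb input was used here. The Olfr952 window at chr9:39400001-39450000 had 10.97, 11.3 and 11.9 CPM of γH2AX in 3Rb, against 13.0, 13.0 and 13.1 in 1Rb_M and 13.6, 12.9 and 14.2 in 1Rb_P, and 7.98, 8.05 and 8.02 CPM of H3.3 in 3Rb and 11.9, 11.2 and 11.9 in 1Rb, against 10.6, 12.1 and 11.8 in Cg. Its difference was larger in H3.3 (-0.54 ± 0.07 for 3Rb over 1Rb, adjusted p = 7.33e-08) than in γH2AX (-0.19 ± 0.06 for 3Rb over 1Rb_M, adjusted p = 0.0209), and the difference between the marks was not tested.

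The Olfr412 window at chr11:74350001-74400000 shows a 1Rb group apart in H3.3 again. γH2AX was 11.45, 12.01 and 11.98 CPM in 3Rb, against 16.8, 16.6 and 17.7 in 1Rb_M and 17.2, 17.8 and 16.1 in 1Rb_P (-0.53 ± 0.06 against 1Rb_M, adjusted p = 1.48e-08). H3.3 was 16.2, 16.4 and 16.5 in 3Rb and 19.5, 21.7 and 21.2 in 1Rb, against 16.7, 16.9 and 17.3 in Cg, and the 1Rb_M to Cg input ratio was 1.33. On chromosome 2, neighbouring windows of the largest cluster moved in opposite directions. The window of Olfr1037 and Olfr1036 at chr2:86050001-86100000 was lower in 3Rb than in 1Rb_M in γH2AX (-0.33 ± 0.08) and than in 1Rb in H3.3 (-0.30 ± 0.07, adjusted p = 0.00135). The next window, with Olfr1039 and Olfr1040, was higher in γH2AX (0.36 ± 0.09, adjusted p = 0.00165) and in H3.3 (0.39 ± 0.07, adjusted p = 5.23e-05).

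**Figure D4:**
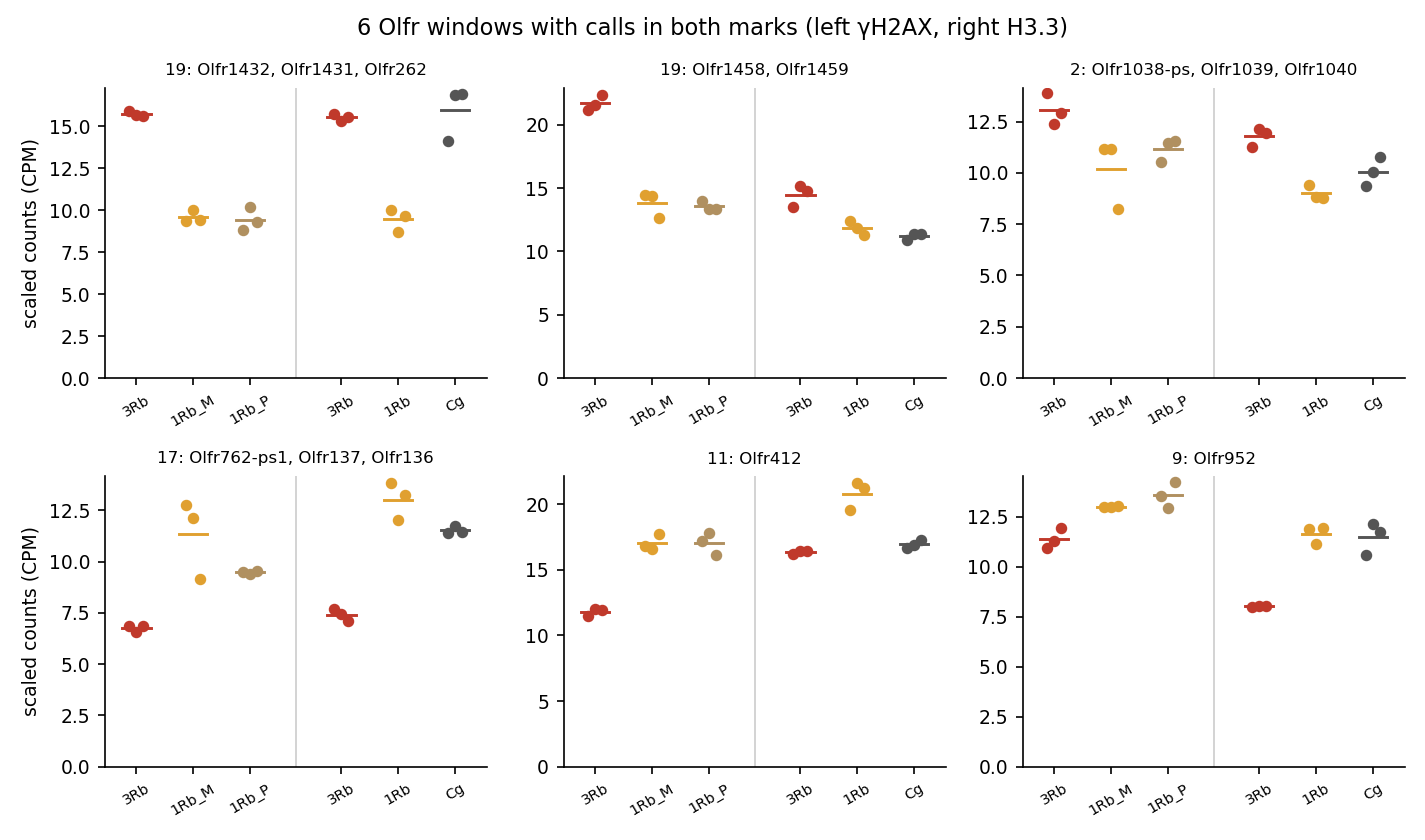
TMM-scaled CPM (vertical axis, from 0) of 6 Olfr windows called in both marks between 3Rb and the 1Rb cross, with 1 point per library and a line at the group mean; γH2AX groups are left and H3.3 groups right of the grey line. In the Olfr762-ps1, Olfr137 and Olfr136 window the 3Rb libraries lie at 6.55 to 6.86 in γH2AX and at 7.10 to 7.67 in H3.3, below all other libraries.

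**Figure D5:**
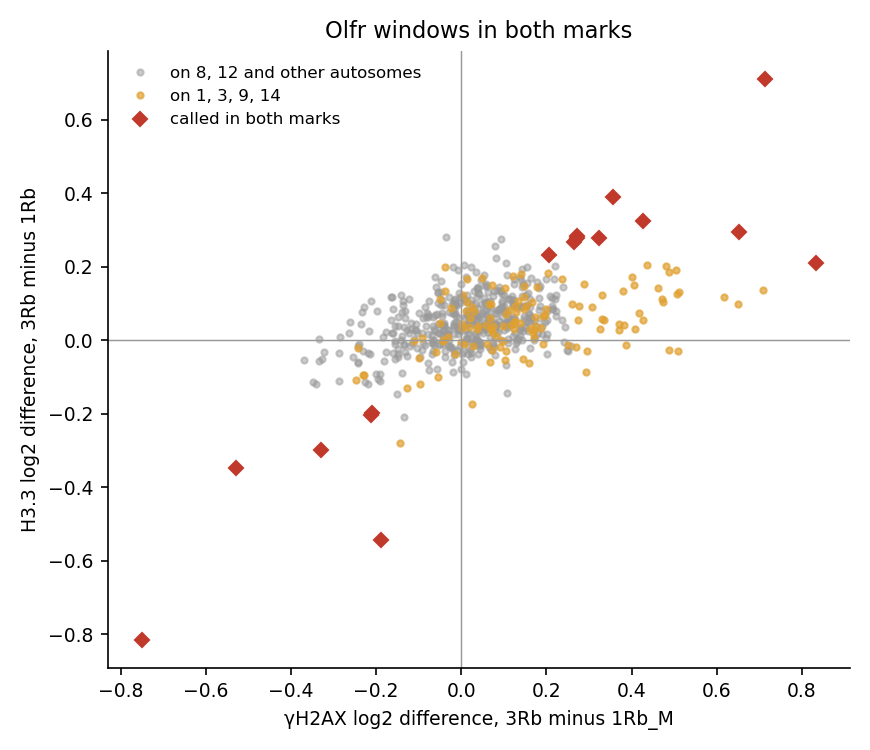
Log2 difference of each of 610 Olfr windows in γH2AX, 3Rb minus 1Rb_M (horizontal axis), and in H3.3, 3Rb minus 1Rb (vertical axis). The 16 windows called in both marks (diamonds) all lie in the quadrants of equal sign, while windows on 1, 3, 9 and 14 spread to the right in γH2AX at H3.3 differences near 0.

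Listed non-Olfr genes of odorant signalling, receptor export, receptor choice and trace amine detection were called lower in γH2AX more often than higher. They were Adcy3, Gnal, Gng13, Cnga4, Cngb1, Omp, Rtp1, Rtp2, Ric8b, Ano2, Slc24a4 and Stoml3. The rest were Lhx2, Ldb1, Ebf1, Ebf2, Ebf3, Ebf4, Kdm1a, Cbx5, Ehmt1, Ehmt2, Lbr, and the trace amine receptors Taar2, Taar5 and Taar9. Of 70 windows over 26 such genes, 2 were higher and 28 lower in 3Rb than in 1Rb_M (median -0.13), and 1 was higher and 14 lower than in 1Rb_P (median -0.07), beside 17.9% and 20.2%, and 10.1% and 12.8%, of all windows. These were 1 and 31, and 1 and 25, with the third 1Rb_M library alone. Lower in both were Omp, the olfactory marker protein of mature neurons (-0.37 and -0.27), Gng13, a G protein subunit of the olfactory cascade (-0.39 and -0.37), and all 4 windows of Slc24a4, the exchanger that clears calcium from olfactory cilia. A window of Ehmt1, a histone H3 lysine 9 methyltransferase, was higher (0.26, adjusted p = 0.0019; 0.20, adjusted p = 0.0231), and windows of its partner Ehmt2 on chromosome 17 were lower. In H3.3 1 of 70 windows was called in 3Rb against Cg. Of 6 windows with receptors that have roles described outside the nose (Olfr16, Olfr78, Olfr558, Olfr544, Olfr1393 and Olfr2), 1 was called against 1Rb_M, Olfr1393, a receptor expressed in the kidney (-0.23, adjusted p = 0.0032), a share close to the 20.2% of all windows called lower. Olfr16 (MOR23), the receptor known from sperm, was not called in any comparison. Of 5 windows with receptors used in many studies of receptor choice, among them Olfr17 (P2), Olfr151 (M71) and Olfr73 (mOR-EG), only that of Olfr155 was called, lower than in 1Rb_M (-0.19, adjusted p = 0.0053), again beside 20.2% of all windows. With the third 1Rb_M library alone 2 of the 5 were called higher as well, where 27.4% of all windows were.

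Windows with vomeronasal receptors, the other large chemoreceptor family, were tested in the same fits. Of 475, 20.8% were higher and 8.42% lower in 3Rb than in Cg, against the 32 and 11 of 610 Olfr windows above. In γH2AX 7.58% were higher and 13.7% lower in 3Rb than in 1Rb_M, and 10.9% and 6.53% than in 1Rb_P. When only the third 1Rb_M library was used, these were 38.9% and 4.42%, and 28.2% and 12.4%. The difference between the families was not tested.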

How the data were processed

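The data are counts per 50 kb window of mm10 for 22 ChIP-seq and input libraries, as deposited by the authors. Reads were handled with CASAVA 1.8 and BWA, per the submitters' processing notes; the mapping settings and the treatment of duplicates are not given in the sources used here, and they bear on receptor windows because of their repeated sequence. Windows, clusters, gene lists and comparisons were chosen with earlier results of these data known. Windows averaging 10 or more counts in a mark (53118 for γH2AX and 53117 for H3.3) were tested with edgeR 4.0.16 (R 4.3.3; TMM, quasi-likelihood, Benjamini-Hochberg over all windows, 3 groups per mark in a single fit); clusters were summed and tested beside 1 Mb bins of the other windows. Levels are log2 ratios with a pseudocount of 0.5 to the pooled inputs, where these had at least 10 counts. Windows are named where called without overlap between the groups' libraries and with ordinary input, ranked by adjusted p, 6 per direction and at most 2 per cluster; the 10 largest clusters and those of at least 3 windows on 1, 3, 8, 9, 12 and 14 are named too. On simulated counts, 70% of γH2AX windows changed by a log2 of 0.3 and 100% of those changed by 1 were recovered. An input was grouped as 1Rb_M by its title, although its strain entry is that of 1Rb_P. DESeq2 1.42.0, library totals, a replicate block, other inputs and leaving out libraries were tried as alternatives; the third 1Rb_M library alone was added after seeing the data.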

Additional observations from a re-analysis of the deposited data

How the results depend on the processing

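The low H3.3 of receptor windows kept its direction in every alternative run: against the other autosomal windows it was -0.24, -0.15 with the B6 input alone and -0.29 from summed counts, and against the flanks -0.31 with the B6 input alone. The γH2AX difference from the other autosomal windows, -0.06, became 0.0086 with the B6 input alone, and that from the flanks in 3Rb, 0.04, became 0.12 with the B6 and 0.015 with the Cg input alone. The joined minus unjoined difference of γH2AX was 0.12 in 3Rb and 0.011 in 1Rb with the B6 input alone, and 0.15 in 3Rb from the mean of windows. Leaving out 1 library at a time gave -0.07 to -0.05 and -0.24 to -0.23 for γH2AX and H3.3 against other windows, 0.09 to 0.11 and -0.02 to -0.01 for joined minus unjoined in 3Rb and 1Rb, and -0.45 to -0.43 and 0.03 to 0.06 against flanks for H3.3 and for γH2AX in 3Rb. The cause of these changes was not tested.

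Counts of called windows are given as higher and lower. Library totals gave 35 and 84 for 3Rb against 1Rb_M and 2 and 0 for 1Rb_M against 1Rb_P. DESeq2 gave 51 higher in 3Rb than in 1Rb_M, 49 and 10 in 3Rb against 1Rb_P, and 0 and 0 in 1Rb_M against 1Rb_P. The third 1Rb_M library alone gave 304 higher, 159 and 33, and 8 and 101 in the same order. Counting only windows with protein-coding receptors left 1 lower in 1Rb_M than in 1Rb_P. For clusters, library totals gave 4 higher against 1Rb_M, 5 and 3 against 1Rb_P, 0 lower between the 1Rb groups, 9 higher in H3.3 for 3Rb against Cg and 2 against 1Rb. The third library alone gave 30, 21, and 5 and 11. DESeq2 gave 5 higher between the 1Rb groups and, in H3.3, 8 and 4 for 3Rb against Cg, 2 higher for 1Rb against Cg and 3 higher for 3Rb against 1Rb. With the third library alone 4 clusters reversed against 1Rb_M: the class I cluster (0.14), Olfr467 to Olfr519 on chromosome 7 (0.10), Olfr9 to Olfr827 on chromosome 10 (0.088) and the chromosome 17 cluster (0.10).

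Leaving out each library in turn gave ranges for windows of 62 to 188 higher and 35 to 94 lower (3Rb against 1Rb_M), 51 to 142 and 12 to 29 (3Rb against 1Rb_P), 0 to 137 and 0 to 29 (1Rb_M against 1Rb_P), and in H3.3 12 to 48 and 6 to 17 (3Rb against Cg), 2 to 8 and 5 to 15 (1Rb against Cg), and 8 to 51 and 6 to 9 (3Rb against 1Rb). For clusters the ranges were 8 to 14 and 10 to 21, 5 to 19 and 3 to 8, 0 to 24 and 0 to 2, and in H3.3 2 to 8 and 0 to 3, 1 to 1 and 0 to 2, and 0 to 11 and 0 to 2. The shares called over all windows, or all clusters and bins, in fits without 1 library are not given here or above. Such counts therefore describe the fits and are not particular to receptor windows. Of 332 refits of named windows without such leave-outs, 320 kept direction and call, 12 lost the call and 0 reversed. Without 1 library, 514 of 549 refits kept both, 35 lost the call and 0 reversed. The named windows were chosen for their calls in these same libraries, so the refits are not an independent check.

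The replicate numbers did not pair the libraries: same-numbered libraries deviated together with r of -0.328 to 0.325 in γH2AX (3 of 9 pairs above 0.1) and -0.568 to 0.141 in H3.3 (1 of 9). With the replicate number as a block, window counts were 0 and 0 for 1Rb_M against 1Rb_P, 19 higher in H3.3 for 3Rb against Cg and 2 higher for 1Rb against Cg. Of all windows, 66 and 400, 1236, and 483 were called in the same order. Cluster counts with the block were 0 and 0, then 2 and 0, and 0 lower. Of all 2734 clusters and bins, 1 and 16, 56 and 111, and 39 were.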

Other observations

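The X chromosome holds 8 further Olfr genes in 7 windows, which are not part of the comparisons above. Their γH2AX level was 2.87 ± 0.09 in 3Rb, 2.45 ± 0.44 in 1Rb_M and 2.87 ± 0.04 in 1Rb_P (log2 ratio to pooled inputs, SD, n = 3 each), against 3.24 in B6, and all 3310 X windows were at 2.94, 2.44, 2.88 and 3.14 in the same groups. Their H3.3 level was 0.98 in 3Rb and 0.97 in 1Rb, against 1.09 in Cg, where all X windows were at 1.00, 1.01 and 1.15.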
